A study of Mus musculus with 6 samples.

Results

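Germ cells of the mouse testis carry their own versions of several enzymes of sugar metabolism, and the results below follow 10 genes of this kind, or their somatic counterparts, through testes that lack Ttll5. The genes were chosen by name: Hk1, Gapdhs, Pgk1, Pgk2, Pgam2, Ldha, Ldhc, Pdha1, Pdha2 and Gk2. A gene counted as measured where the array annotation gave at least 1 probe set (a group of probes for a part of an exon) with that symbol alone. This held for 8 of the 10, with 73 of 188590 probe sets, and these 8 stand among 15792 genes measured in the same way. Pgk1 and Ldha had no such probe set, so the comparisons of Pgk2 with Pgk1 and of Ldhc with Ldha are not analysed here.

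RNA from whole testes was hybridized to 6 Affymetrix exon arrays, 3 from wild-type (WT) mice and 3 from Ttll5/Stamp knockout (KO) mice. Ttll5, also named STAMP, is a tubulin tyrosine ligase-like protein, and the series title reports malformed sperm and infertility in the males without it. The mice of both genotypes shared a mixed background of C57BL/6, 129/SvEv and FVB/N and were age-matched littermates per the labels; no source used here gives the age, the exons removed or the way the allele was made. Nothing in the labels says whether an array holds 1 animal or a pool, so p-values cover the spread between these 6 RNA samples only.

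Glycolysis splits glucose into pyruvate, and lactate dehydrogenase and the pyruvate dehydrogenase complex set what becomes of that pyruvate. Sperm motility in the mouse draws much of its ATP from glycolysis along the flagellum, where some of these enzymes are anchored to the fibrous sheath. Pgk1 and Pdha1 lie on the X chromosome, which is silenced in male meiosis, and Pgk2, Pdha2 and Gk2 are intronless autosomal copies (retrogenes) of X-linked genes that are expressed in germ cells. Ldhc arose beside Ldha by gene duplication and makes the lactate dehydrogenase of spermatocytes, spermatids and sperm. Gapdhs encodes the glyceraldehyde-3-phosphate dehydrogenase of spermatids and sperm.

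The sequence before the start site separates the retrogenes from their X-linked parents. The 250 bases upstream of each start were taken from RefSeq (GRCm38.p6), which holds an entry for all 10 genes, and CG pairs were counted on the gene's strand. Pgk1 held 17 and Pdha1 15 such pairs, while Pgk2 held 3 and Pdha2 4, against a median of 6 over 32851 windows of that length. Gk2 held 5 and Gk, its X-linked parent, 21. The windows of the retrogenes thus lay below the median of all windows and those of the parents above it. Low counts were not particular to retrogenes. Gapdhs held 1 and 0 at its annotated starts, Pgam2 1, and Hk1 1 at its more upstream start and 14 at the other. The windows are shown 5′ to 3′ for the phosphoglycerate kinase and pyruvate dehydrogenase pairs, with each CG in capitals.
Pgk2, chr17:40208610-40208859 (-): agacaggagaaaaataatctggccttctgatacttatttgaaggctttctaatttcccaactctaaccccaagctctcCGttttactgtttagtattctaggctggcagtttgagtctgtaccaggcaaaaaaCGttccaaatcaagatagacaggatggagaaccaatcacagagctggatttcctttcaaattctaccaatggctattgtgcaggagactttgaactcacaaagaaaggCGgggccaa
Pgk1, chrX:106186850-106187099 (+): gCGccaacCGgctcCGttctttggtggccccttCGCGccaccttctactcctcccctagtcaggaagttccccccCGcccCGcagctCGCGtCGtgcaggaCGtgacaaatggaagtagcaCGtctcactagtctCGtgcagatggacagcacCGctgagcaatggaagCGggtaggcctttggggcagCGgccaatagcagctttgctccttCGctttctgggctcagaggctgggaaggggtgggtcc
Pdha2, chr3:141212356-141212605 (-): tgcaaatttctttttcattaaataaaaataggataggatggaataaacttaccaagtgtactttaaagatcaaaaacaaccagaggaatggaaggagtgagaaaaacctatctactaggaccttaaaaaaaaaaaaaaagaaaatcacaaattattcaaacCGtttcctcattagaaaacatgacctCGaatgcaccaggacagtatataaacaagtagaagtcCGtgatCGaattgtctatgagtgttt
Pdha1, chrX:160138431-160138680 (-): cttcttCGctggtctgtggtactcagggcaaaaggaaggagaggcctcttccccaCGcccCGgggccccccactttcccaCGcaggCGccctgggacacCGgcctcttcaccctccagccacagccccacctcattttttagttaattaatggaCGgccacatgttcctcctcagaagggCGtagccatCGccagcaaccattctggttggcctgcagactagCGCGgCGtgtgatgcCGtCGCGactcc

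Letters that resemble the cAMP response element stood before several of the other genes. The search took TGACGT, TGACATCA and the GC box GGGCGG on both strands, TGACATCA being added after the windows had been read, and none contains another. TGACGT was found in 6.47%, TGACATCA in 2.93% and GGGCGG in 32.7% of all windows. Because TGACATCA was picked from these windows, its matches in them cannot be weighed against that share. Ldhc, at the more upstream of its annotated starts, held TGACGT 2 times, 61 and 47 bases before the start. Gapdhs held TGACATCA 2 times, 94 and 76 bases before the more upstream of its starts. Its other annotated start also had TGACATCA 2 times, 70 and 52 bases before it. The windows of the 2 starts share long runs of letters, so these matches are not separate from the first. The more upstream start of Hk1 had TGACATCA 52 bases before it and Pgam2 had it 225 bases before its start. Ldha, the somatic neighbour of Ldhc, held the palindrome TGACGTCA, which counts as a match on each strand, so these letters are not particular to the germ cell genes. GGGCGG stood 3 times before Gk, 2 times before Ldha and 1 time each before Pgk1 and Ldhc (the more upstream start of Ldha and Ldhc). Pgk2, Pdha2 and Gk2 held none of these motifs in this window. A match is a description of the letters and no evidence that a factor binds there. The windows of Ldhc and Gapdhs at their more upstream starts are shown, as germ cell genes with 2 separate matches each to TGACGT or TGACATCA, in capitals.
Ldhc, chr7:46861013-46861262 (+): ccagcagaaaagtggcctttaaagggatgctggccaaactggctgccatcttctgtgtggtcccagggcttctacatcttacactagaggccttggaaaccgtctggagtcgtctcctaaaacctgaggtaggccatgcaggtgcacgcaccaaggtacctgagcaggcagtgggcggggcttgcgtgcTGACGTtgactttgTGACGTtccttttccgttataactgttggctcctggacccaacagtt
Gapdhs, chr7:30743682-30743931 (-): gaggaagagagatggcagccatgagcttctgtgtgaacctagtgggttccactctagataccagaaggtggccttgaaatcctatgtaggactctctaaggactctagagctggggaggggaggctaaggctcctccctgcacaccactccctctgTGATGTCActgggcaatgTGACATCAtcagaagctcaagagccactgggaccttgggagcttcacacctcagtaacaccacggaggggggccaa

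The arrays were alike in distribution, with medians of 6.72 to 6.77 (log2) and highest values of 14.20 to 14.43. In KO, Ttll5 fell by 1.62 (SE 0.066, limma adjusted p = 4.3e-05), with all 3 KO arrays below the WT arrays, which fits the labels. Markers of the tissue were present: the mean level of 7 elongating spermatid genes was 12.68 to 12.75 in WT and 12.62 to 12.69 in KO. Of 5 epididymal markers, 3 had a WT level under the lowest lower quartile of the arrays (4.59). In bulk tissue, fewer cells of a type and less RNA per cell cannot be told apart, so marker lists are given beside the results. In KO, lower values were found for 7 of 7 pachytene spermatocyte genes (median -0.11), 6 of 8 round spermatid genes (median -0.091) and 6 of 7 elongating spermatid genes (median -0.095), against 51.1% of all genes. Spermatogonial genes had a median of -0.12 (7 of 8 lower) and Sertoli cell genes of 0.0039 (4 of 8 lower). Leydig cell genes had higher values in 7 of 7 (median 0.35; mean level 9.57 to 9.94 in WT, 10.07 to 10.20 in KO), and macrophage genes in 6 of 8 (median 0.16). Peritubular myoid genes had a median of 0.046 (5 of 6 higher) and red blood cell genes of 0.13 (2 of 2 higher). None of these 66 markers passed limma's test over all genes, which 0.0697% of all genes did. At an unadjusted p under 0.05 there were 7 higher and 2 lower markers, against 6.05% of all genes.

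None of the 8 measured genes passed the test of KO against WT (limma, Benjamini-Hochberg over 15792 genes, threshold 0.05), where 0.0697% of all genes did. At an unadjusted p under 0.05 there was 1 of 8, Pdha2, against 6.05% of all genes. In that gene alone the KO arrays did not overlap with the WT arrays, which held for 11.2% of all genes. The 8 differences ran from -0.29 to 0.11 with a median of -0.016, beside -0.0026 over all genes, and 4 were higher and 4 lower. Each difference is a KO mean less a WT mean (log2), and a gene value is the mean log2 value of its probe sets. Gene values are not compared between genes, since probe sets differ in response.

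**Figure D1:**
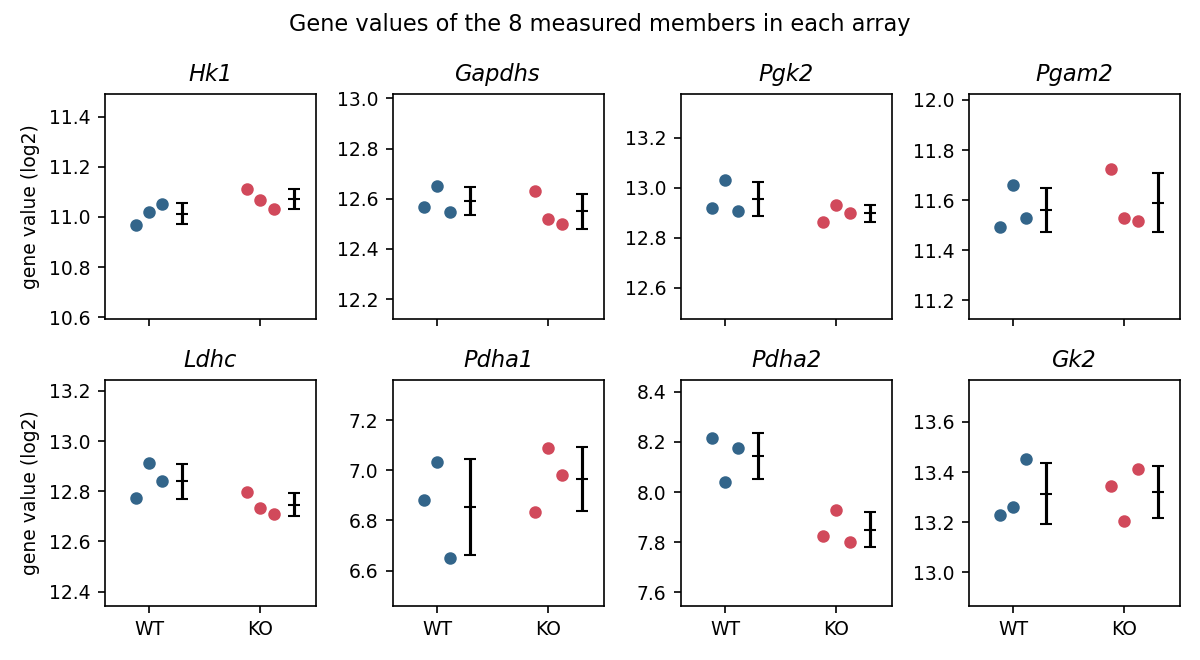
Gene values (log2) of the 8 measured genes in each WT (blue) and KO (red) array; bars give mean ± SD of 3 arrays, and every panel spans the same range. Only in Pdha2 do the KO arrays, 7.80 to 7.93, all lie below the WT arrays, 8.04 to 8.21.

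Hk1 encodes hexokinase 1, which phosphorylates glucose at the entry to glycolysis and has germ cell transcripts from alternative first exons. Its values were 10.97, 11.02 and 11.05 in WT and 11.11, 11.07 and 11.03 in KO. The highest WT array lay above the lowest KO array, so the groups overlapped. The difference was 0.058 (SE 0.067, limma adjusted p = 0.96), and its 95% interval placed the KO level between 93.5% and 116% of WT. Of 23 probe sets 16 were higher and 7 lower. The largest difference was 0.52, in a probe set whose WT arrays read 4.41, 4.53 and 4.57 and whose KO arrays read 4.96, 5.25 and 4.88 (limma adjusted p over all probe sets 0.86). That probe set lay under the lowest lower quartile (4.59) in WT, as did 2 others of the gene, which differed by -0.24 and 0.39; the remaining 20 had WT levels of 9.82 or more. No source used here says which first exon any of these probe sets covers.

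Gapdhs carries out the oxidation step of glycolysis in sperm, as an isozyme bound to the fibrous sheath. The WT arrays read 12.57, 12.65 and 12.55, and the KO arrays 12.63, 12.52 and 12.50. KO 1 was above 2 of the WT arrays and the groups overlapped. The difference was -0.039 (SE 0.073, adjusted p = 0.98), with an interval of 86.7% to 109% of WT. Its 11 probe sets differed by -0.13 to 0.13, 3 higher and 8 lower.

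Pgk2, the phosphoglycerate kinase of meiotic and later germ cells, takes over an ATP-yielding step from X-linked Pgk1. Values were 12.92, 13.03 and 12.91 in WT and 12.86, 12.93 and 12.90 in KO. WT 2 was the highest array and the others lay close together. The gene differed by -0.056 (SE 0.070, adjusted p = 0.97; 86.0% to 108% of WT). Both of its probe sets were slightly lower, by 0.069 and 0.043 in size.

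Pgam2, the phosphoglycerate mutase of muscle that is also expressed in testis, read 11.49, 11.66 and 11.53 in WT, against 11.72, 11.53 and 11.52 in KO. KO 1 was its highest array and the other KO arrays lay within the WT range. The difference was 0.030 (SE 0.086, adjusted p = 0.99; 89.0% to 117% of WT), with 4 of 6 probe sets higher.

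Ldhc, which interconverts pyruvate and lactate in germ cells, had values of 12.77, 12.91 and 12.84 in WT and 12.80, 12.74 and 12.71 in KO. Of the KO arrays only KO 1 lay within the WT range, just above WT 1. The difference was -0.094 (SE 0.071, adjusted p = 0.92), and the KO level lay between 83.6% and 105% of WT. All 9 probe sets had lower values, by 0.034 to 0.22 in size, and in 2 of them every KO array lay below every WT array, against 5.27% of all probe sets. The probe sets share the same 6 RNA samples and are no replicates of each other. The germ cell marker lists had medians of similar size, -0.091 to -0.12, and their part in the Ldhc value was not tested.

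**Figure D2:**
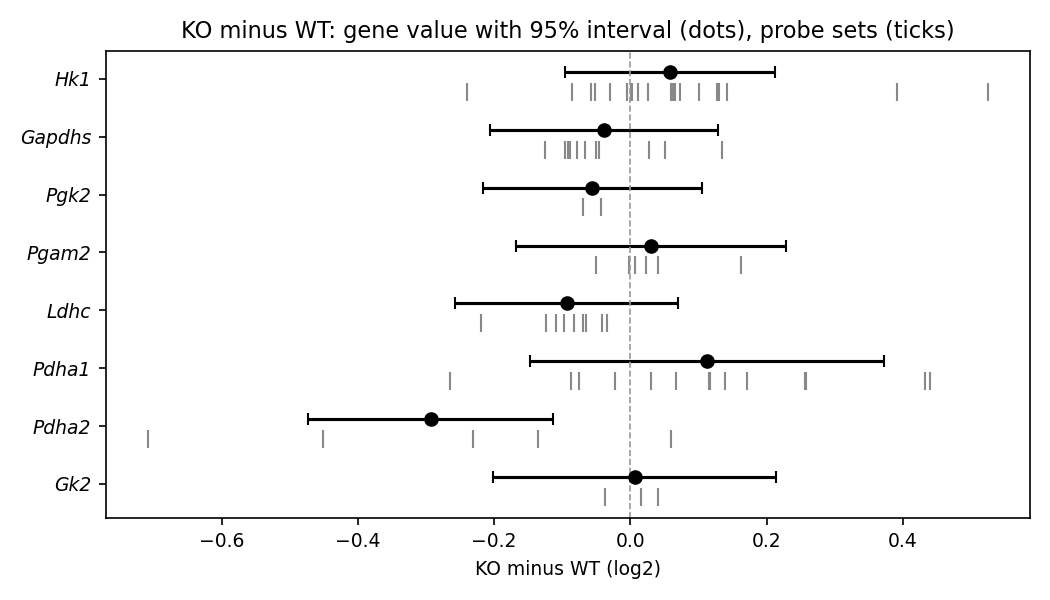
KO minus WT (log2) of each measured gene with limma's 95% interval (dots and bars), and of each of its probe sets (grey ticks). The interval excludes 0 for Pdha2 only, before adjustment over all genes; the ticks of Hk1 and Pdha1 spread to 0.52 and 0.44.

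Pyruvate dehydrogenase feeds pyruvate into the citric acid cycle, and its catalytic E1 alpha subunit is made from Pdha1 in somatic cells and from Pdha2 in germ cells. Pdha2 read 8.21, 8.04 and 8.18 in WT, against 7.82, 7.93 and 7.80 in KO, so each KO array lay below each WT array. The difference was -0.29 (SE 0.078), 81.6% of WT with an interval of 72.0% to 92.4%. It did not pass the test over all genes (unadjusted p = 0.0054, limma adjusted p = 0.59), and 579 of the 15792 genes differed by more. For Pdha1 the WT arrays read 6.88, 7.03 and 6.65 and the KO arrays 6.83, 7.09 and 6.98, with overlapping groups. Its difference was 0.11 (SE 0.11, adjusted p = 0.95), an interval of 90.3% to 129% of WT, and it had the widest spread of the 8 genes in both groups (SD 0.19 and 0.13). Single arrays moved it, to 0.0099 without WT 3 and to 0.20 without WT 2. Of the 14 probe sets of Pdha1, 10 were higher and 4 lower. The brightest, at 10.56 in WT, differed by -0.023. The largest differences, 0.44 and 0.43, were in dimmer probe sets, at 7.70 and 6.48 in WT.

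The 5 probe sets of Pdha2 did not move alike. In the brightest, the values were 12.27, 12.44 and 12.22 in WT and 12.21, 12.19 and 12.11 in KO, a difference of -0.14 with groups that did not overlap. The second by level differed by -0.23, and its KO arrays (9.65 to 10.38) lay on both sides of the WT arrays. The third held the largest difference, -0.71 (unadjusted p = 0.027, limma adjusted p = 0.89 over all probe sets), from 8.92, 9.15 and 9.58 to 8.37, 8.99 and 8.16. There KO 2 lay above WT 1. A dim probe set differed by -0.45, with WT 1 at 6.00 and the other arrays at 4.80 to 5.10. The dimmest differed by 0.060 and lay below 4.59 in all 6 arrays. With the median of the probe sets, which here is the third, the gene differed by -0.71 (limma adjusted p = 0.81). Over the 73 probe sets of all 8 genes limma called 0 (0.0382% of all probe sets were called), and 3 had an unadjusted p under 0.05, against 5.36% of all. In 4 of the 73 the KO arrays all lay above the WT arrays (4.97% of all probe sets) and in 3 all below.

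The ratio of the testis to the somatic isozyme was compared within arrays, where a shift common to both genes cancels. A change in the share of germ cells to somatic cells does not cancel. Germ cell marker lists had medians of -0.091 to -0.12, Sertoli cell genes of 0.0039 and Leydig cell genes of 0.35. Their part in the ratio was not tested. Pdha2 minus Pdha1 was 1.33, 1.01 and 1.53 in WT and 0.99, 0.84 and 0.82 in KO. The KO arrays lay below the WT arrays, WT 2 and KO 1 being 0.018 apart. The ratio differed by -0.41, from 1.29 ± 0.26 to 0.88 ± 0.093 (SD, n = 3), and by -0.85 with the median of the probe sets of each gene. A two-sided exact permutation test on the means gave p = 0.1, the smallest that 3 arrays against 3 allow, and 0.2 after adjustment over the 2 pairs that could be formed of the 6 planned. This does not pass 0.05, which this permutation test of 3 arrays against 3 cannot reach. The absolute value of the ratio has no meaning as a ratio of transcripts, because probe sets of different genes respond differently.

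**Figure D3:**
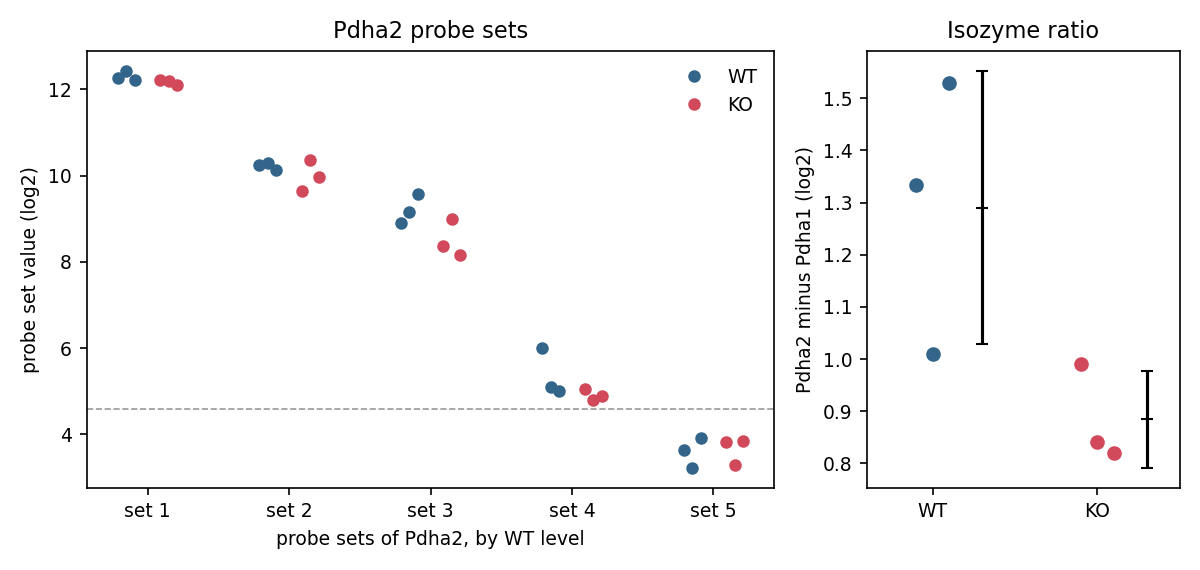
Left, the 5 probe sets of Pdha2 in each WT (blue) and KO (red) array (log2), ordered by WT level, with a dashed line at the lowest lower quartile of the arrays (4.59). Right, the within-array difference Pdha2 minus Pdha1 (log2), with mean ± SD: the WT arrays lie at 1.01 to 1.53 and the KO arrays at 0.82 to 0.99.

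Gk2, a glycerol kinase of spermatids, had values of 13.23, 13.26 and 13.45 in WT and 13.34, 13.21 and 13.41 in KO. The groups overlapped widely. Its difference was 0.0063 (SE 0.090, adjusted p above 0.99; 87.0% to 116% of WT). Gk, the X-linked parent, which the array lists under its older symbol Gyk, was at 4.84 ± 0.031 in WT and 4.85 ± 0.088 in KO (SD, n = 3), near the lower quartile of the arrays. The ratio Gk2 minus Gk was 8.47 ± 0.15 in WT and 8.47 ± 0.17 in KO (exact permutation p = 1). Without dim probe sets the ratio differed by 0.11 (exact permutation p = 0.4). The brightest probe set of Gk2 averaged 13.92 in WT, and the brightest of Ldhc 13.83, close to the highest values of the arrays. Whether probes at that level still respond in full was not tested.

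The wider pathway was described with lists of related genes, in each of which at most 4 genes are named, those with the smallest unadjusted p. Of 32 glycolytic genes listed 22 were measured, of which 9 had higher and 13 lower values, with a median of -0.015. None was called by limma, and 1 had an unadjusted p under 0.05, against 6.05% of all genes. That 1 was Aldoc, an aldolase best known from brain, which read 7.76, 7.76 and 7.65 in WT, against 7.99, 8.25 and 8.08 in KO. All its KO arrays were above the WT arrays, and the difference was 0.39 (SE 0.087, adjusted p = 0.45). Ldhal6b, a lactate dehydrogenase-like gene expressed in testis, differed by -0.15 (SE 0.085, adjusted p = 0.87). Eno1, an enolase, differed by 0.24 (SE 0.21, adjusted p = 0.94) from a single probe set at 3.55 in WT, under every array's lower quartile. Ldhc was the remaining gene by this order.

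Among 11 measured genes of the pyruvate dehydrogenase complex and its regulators, 5 had higher and 6 lower values, with a median of -0.0085. No call was made by limma, and 2 genes had an unadjusted p under 0.05, against 6.05% of all genes. Both were lower: Pdha2 and Pdk1, a kinase that inhibits the complex. Pdk1 read 7.01, 6.84 and 6.74 in WT, against 6.73, 6.69 and 6.49 in KO, a difference of -0.23 (SE 0.098, adjusted p = 0.82). Its groups did not overlap, by a margin of 0.015, and 11.2% of all genes had no overlap. Dld, the E3 subunit, differed by -0.19 (SE 0.090, adjusted p = 0.84), and Pdhb, the partner of the E1 alpha subunits, by -0.11 (SE 0.075, adjusted p = 0.90). Dld lies on chromosome 12, as Ttll5 does, and a part of this position in its value was not tested. All 6 genes of the glycerol list that were measured lay between -0.065 and 0.11. They included the glycerol-3-phosphate dehydrogenases Gpd1 (0.11, adjusted p = 0.91), Gpd2 (-0.046, adjusted p = 0.97) and Gpd1l (-0.065, adjusted p = 0.97), and Gk5, another glycerol kinase (0.11, adjusted p = 0.93).

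Carriers of hexoses, lactate and pyruvate had higher values in 10 of 12 and lower values in 2, where 51.1% of all genes were lower. Their median was 0.043, and limma called none of them, where it called 0.0697% of all genes. Slc16a3, the lactate exporter MCT4, was the only one with an unadjusted p under 0.05, against 6.05% of all genes. The WT arrays read 6.07, 6.35 and 6.29 and the KO arrays 6.96, 6.51 and 7.10, with every KO array above the WT arrays and KO 2 nearest to them. The difference was 0.62 (SE 0.15, unadjusted p = 0.0035, limma adjusted p = 0.51). Slc2a1, the glucose transporter GLUT1, differed by 0.30 (SE 0.14, adjusted p = 0.84), with KO 2 again the lowest KO array, inside the WT range. Slc16a8 differed by 0.11 (adjusted p = 0.89) and Mpc2, a subunit of the mitochondrial pyruvate carrier, by -0.20 (adjusted p = 0.91). Leydig cell and macrophage markers also had higher values in KO, and their part in these differences was not tested.

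**Figure D4:**
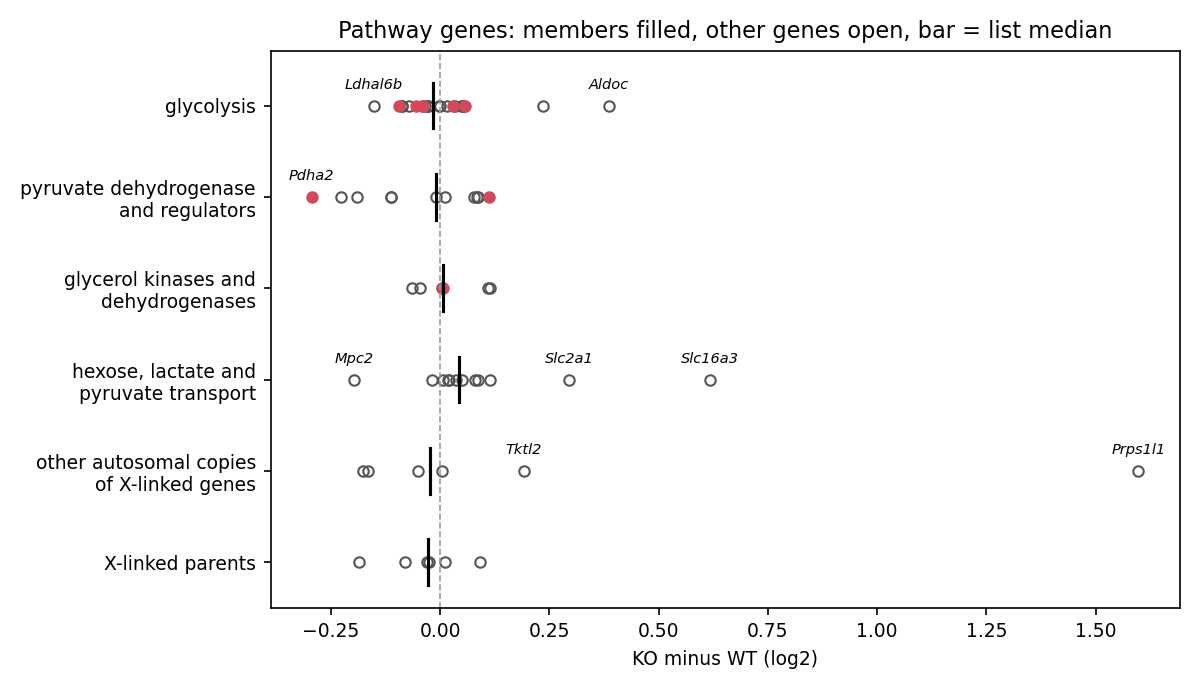
KO minus WT (log2) of every measured gene of the pathway lists, with Pdha1, Pdha2, Hk1, Gapdhs, Pgk2, Pgam2, Ldhc and Gk2 filled, other genes open, and a bar at each list's median. Medians lie between -0.028 and 0.043; Prps1l1 at 1.60 stands apart.

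Other autosomal copies of X-linked genes gave a frame for the retrogenes. Of 6 measured, 3 had higher and 3 lower values, with a median of -0.022, and 1 passed the test. This was Prps1l1, a testis phosphoribosyl pyrophosphate synthetase, which read 7.95, 8.05 and 8.03 in WT, against 9.60, 9.63 and 9.60 in KO, a rise of 1.60 (SE 0.067, limma adjusted p = 4.3e-05). With the median of its 5 probe sets the difference was 0.18 (limma adjusted p = 0.94), which ends the call. Prps1l1 lies on chromosome 12, whereas Pgk2, Pdha2 and Gk2 lie on chromosomes 17, 3 and 5. Whether position has a part in these differences was not tested. For Tktl2 the X-linked parent is uncertain, and without it the list had 2 higher and 3 lower values with a median of -0.050. The other named genes of the list differed by 0.19 (Tktl2, transketolase-like), -0.17 (Cetn1, a centrin) and -0.18 (Utp14b, a ribosome biogenesis factor), with adjusted p-values of 0.83 to 0.92. The 6 measured X-linked parents had a median of -0.028, and limma called none and none had an unadjusted p under 0.05. In 2 of them the KO arrays all lay below the WT arrays, where 11.2% of all genes had no overlap. These parents do not match the 6 measured copies throughout, since not every measured copy had a measured parent. Without Tktl1, listed beside Tktl2, the median of the remaining 5 was -0.031. The parents included Cetn2 (-0.19), Utp14a (-0.079), Tktl1 (0.092) and Cstf2 (-0.025).

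Genes with the most similar course over the 6 arrays were sought for Pgk2 and Ldhc, by the root mean square distance between values centred on each gene's mean. For Pgk2 they were Mkln1 (0.011), Otub2 (0.014) and Sdha (0.014), where the median gene lay at 0.11. For Ldhc they were Zw10 (0.014), Capn7 (0.015) and Crnkl1 (0.018), where the median gene lay at 0.12. With 6 arrays and nearly flat profiles, such distances pick out other genes with little variation, and the 6 named differ by -0.037 to -0.10 between the groups.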

How the data were processed

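The authors deposited 1 table of log2 probe set values for the 6 arrays. RMA and Partek 6.5 are named in the submitters' processing notes, with no role or order; the background correction, probe set selection and annotation build are not stated in the sources used here. Since RMA makes array distributions alike, a shift common to most genes is hidden in such values. The values were used without further normalization. Of 188590 probe sets, 179163 had 1 gene symbol in the platform annotation and entered the means of 15792 genes; probe sets with several symbols (1322) or none (8105) named no gene. Older symbols were matched through RefSeq (GRCm38.p6).

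KO and WT were compared in limma 3.58.1 (R 4.3.3; lmFit, then eBayes) by two-sided tests with no covariate, on all genes and on all probe sets, with Benjamini-Hochberg adjustment and a threshold of 0.05; intervals are limma's 95% intervals. Within-array ratios were compared with exact permutation tests. On simulated arrays of the same 15792 genes, 67 were shifted by 0.5, 67 by 1 and 66 by 2 on the log2 scale. The comparison of KO with WT recovered 80.6% of those shifted by 0.5 and 100% of the others. It made 20 false calls there and 1 call when nothing was changed. More genes were shifted there than the 11 called in the data, which eases the adjusted threshold. No shift as small as those of the 8 genes (-0.29 to 0.11) was simulated, so recovery at that size is not known. The number of arrays limits the precision.

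The genes followed and the lists were chosen with earlier results of these data known. Named are the genes followed, Ttll5, the counterparts of isozymes, up to 4 genes a list by unadjusted p, and 3 genes nearest in course to Pgk2 and to Ldhc. Alternatives covered the gene summary, dim probe sets (below the 40th percentile of the mean over arrays), normalization, moderation, a replicate block and leaving out each array. A term for 3 arrays with a higher lower quartile (WT 1, KO 2, KO 3) and a fit without chromosomes 9 and 12 were added after seeing the data.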

Additional observations from a re-analysis of the deposited data

How the results depend on the processing

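None of the 8 genes was called by limma under any of the 14 alternatives run. Pdha2, Pgk2, Ldhc, Gapdhs and Pdha1 kept their direction in all 14, but not every alternative could change it. The replicate block, the other moderation and the fit with chromosomes left out return each gene's main difference by construction. Leaving out dim probe sets did so for Pgk2, Ldhc and Gapdhs, which had none. The median of the probe sets did so for Pgk2, which has 2. Pdha2 ranged from -0.71 (median of the probe sets) to -0.26 (adjusted p = 0.51 to above 0.99). The split into WT 1, KO 2 and KO 3 and the other 3 arrays leaves 1 array in an arm of each part, so it gives values with no test: Pdha2 was at -0.35 and -0.29, Ldhc at -0.049 and -0.078, Pgk2 at -0.0069 and -0.11, Hk1 at 0.082 and 0.076 and Pgam2 at 0.031 and 0.13, while Gapdhs (-0.057 and 0.031), Pdha1 (0.15 and -0.0072) and Gk2 (0.081 and -0.014) had opposite signs. Pdha2 minus Pdha1 ranged from -0.85 to -0.29 (exact permutation p = 0.1 to 0.25). Differences near 0 changed sign: with the median of the probe sets Hk1 stood at -0.018, Gk2 at -0.038, Pgam2 at -0.014 and the ratio Gk2 minus Gk at -0.0002. With 1 array left out, Pdha2 ran from -0.35 to -0.26, Ldhc from -0.13 to -0.058, Pgk2 from -0.078 to -0.017, Gapdhs from -0.080 to -0.0074, Hk1 from 0.036 to 0.077, Pdha1 from 0.0099 to 0.20, Gk2 from -0.039 to 0.076, Pgam2 from -0.037 to 0.080 and that ratio from -0.059 to 0.096.

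Over all genes limma called 11. It called 5 with the median of the probe sets, 20 with trended and robust moderation, and 8 to 12 with 1 array left out. Without chromosomes 9 and 12 it called 0 of 14369 (820 with an unadjusted p under 0.05). That fit was chosen after seeing the data and leaves out Ttll5 and Prps1l1, called genes on chromosome 12. Fewer calls were thus built into it, and nothing is concluded from it. Of probe sets limma called 72, and 125 with trended and robust moderation. It called 25 with a term for WT 1, KO 2 and KO 3, and 13 to 37 with 1 array left out. Whether the replicate numbers pair the arrays is not known. Deviations of same-numbered arrays correlated across genes at -0.17, 0.072 and 0.18, and those of differently numbered arrays at -0.29 to 0.22. Deviations centred on 3 arrays a group are too few to decide whether littermates were paired. The replicate block gave 9 genes and 7 probe sets called, with 0 of the 8 genes among them and Pdha2 minus Pdha1 at -0.41 (exact sign-flip permutation p = 0.25, the smallest 3 pairs allow). The cause of these changes was not tested.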
